A study of Homo sapiens with 6 samples.

Results

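AZD4547, which blocks the kinases of the FGF receptors, was set against no inhibitor in AN3-CA cells that all received acidic fibroblast growth factor (aFGF). AN3-CA is a human endometrial cancer line known to carry an activating mutation of FGFR2. The comparison rests on 4 of the series' 6 arrays, taken by their labels. Of these, 2 cultures were given 10 ng/mL aFGF with 300 nM AZD4547 (the AZD4547 cultures). The other 2 were given 10 ng/mL aFGF with DMSO and no inhibitor (the aFGF cultures). The remaining 2 cultures received DMSO without aFGF. Cells of all 3 groups grew for 24 h and then stayed for 18 h in serum-free medium with their additions. No culture received AZD4547 without aFGF, and the labels do not give the DMSO content of the AZD4547 cultures. All 19040 genes with an unambiguous probe set were tested, and 35 gene lists were described.

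FGF ligands such as aFGF pair the FGF receptors on the cell surface, and the receptors' kinases then phosphorylate each other and the adaptor FRS2. FRS2 recruits GRB2, SOS and GAB1, which switch on RAS and the RAF, MEK and ERK kinases as well as PI3 kinase. ERK induces immediate early transcription factors and MYC, and it induces its own inhibitors, the Sprouty proteins and dual-specificity phosphatases. AZD4547 occupies the ATP site of the receptors' kinases, most potently in FGFR1, FGFR2 and FGFR3.

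The arrays report a log2 intensity for each probe set, and a difference of 1 between groups is a 2-fold change. Array medians of log2 intensity lay between 2.84 and 2.89. A gene below the highest of them is called dim here, because the files hold no detection calls and the size of a change into or out of that range is uncertain. Levels are compared within a gene only. The replicate arrays correlated at r = 0.9973 in the AZD4547 group, 0.9973 in the aFGF group and 0.9966 in the DMSO group, across probe sets that are not independent. The labels call the cultures biological replicates and say no more of their source, so the p-values speak only of the spread between these cultures. Fold changes are AZD4547 cultures over aFGF cultures, with limma's standard error (SE) and its p adjusted by Benjamini-Hochberg over all 19040 genes. That SE combines a gene's own spread over all 6 arrays with the spread of other genes of like intensity. An exact permutation test over 2 against 2 arrays cannot give a p below 0.3333. In bulk RNA, fewer cells of a kind and less RNA per cell cannot be told apart.

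AZD4547 changed 4894 genes at an adjusted p under 0.05, which is 25.7% of those tested. Of these, 2964 rose (15.6%) and 1930 fell (10.1%). In all 4894 the AZD4547 and aFGF groups did not overlap, as they did not in 60.6% of all genes tested. The falls went further than the rises: 22 genes fell at least 4-fold and 3 rose as far, although 116 fell (0.609%) and 149 rose (0.783%) at least 2-fold. The median called change was 0.43 upward and -0.42 downward on the log2 scale, and the median over all genes was -0.02. Among called genes with 2 or more probe sets above the dim range, 2756 of 3003 (91.8%) had all of those probe sets on 1 side. Without aFGF replicate 1, aFGF replicate 2 or AZD4547 replicate 1 the total was 3047, 3046 or 3236, with the remaining culture taken to vary as the full groups did. In each of the 13 lists whose median lay within 0.1 of 0, at least 1 alternative moved that median by over 1.5 times or turned its sign. Among the called genes named here, MKNK2, SHMT1, STAT2 and PPARA each had 1 probe set above the dim range that ran against the one used.

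**Figure D1:**
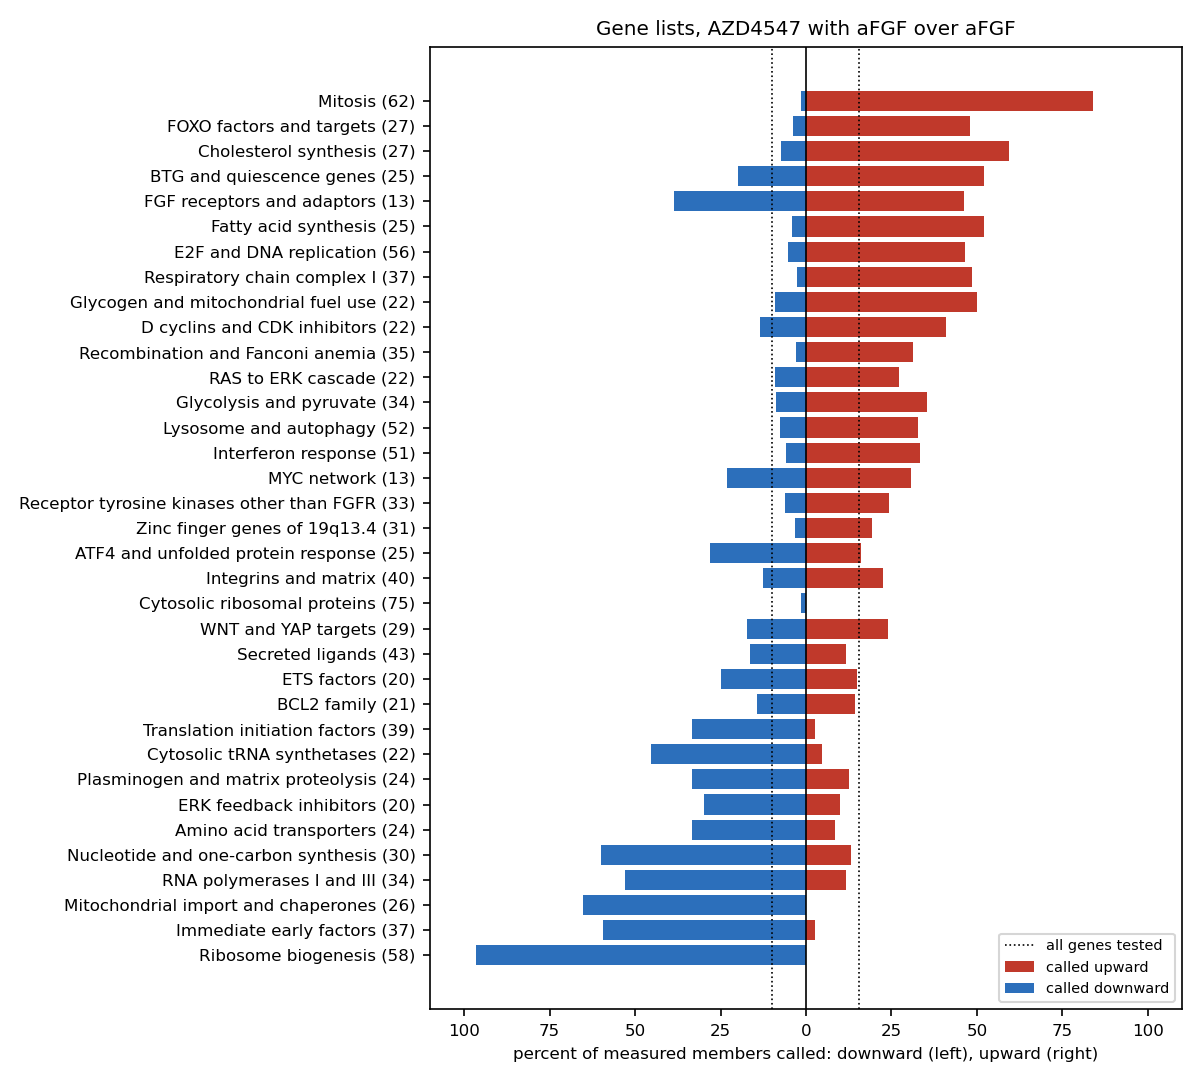
Percent of the measured members of each of the 35 gene lists that were called upward (right, red) or downward (left, blue), with the number of members in parentheses and lists ordered by median log2 fold change. The dotted lines mark the shares of all genes tested, 15.6% upward and 10.1% downward; ribosome biogenesis and mitosis stand at the opposite ends.

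EMP1, an epithelial membrane protein, had log2 intensities of 2.86 and 2.64 in the AZD4547 cultures, against 8.63 and 8.55 in the aFGF cultures. The DMSO cultures stood at 4.16 and 4.20, so the inhibited cultures lay below both other groups, in the dim range. TNFRSF12A, the receptor for the cytokine TWEAK, had 5.64 and 5.68 with AZD4547, against 8.57 and 8.57 with aFGF (log2 fold change -2.91, SE 0.06, limma adjusted p = 4.2e-11). SOX8, a transcription factor of the SOX family, had 4.36 and 4.44 against 7.07 and 7.03 (-2.65, SE 0.07, adjusted p = 7.4e-10). MAP3K14, the kinase NIK that starts the non-canonical NF-kB pathway, had 3.20 and 3.08 against 5.58 and 5.34 (-2.32, SE 0.10, adjusted p = 4.5e-08). In each of these the aFGF cultures were the highest of the 3 groups. CLCF1, a cytokine of the interleukin-6 family, fell by 2.86 (SE 0.12) and the calcium-binding protein S100A2 by 2.84 (SE 0.11), both to dim levels.

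The largest rises ran the other way across the 3 groups, with the aFGF cultures lowest. TMT1A, a thiol methyltransferase that the files list as METTL7A, had 8.49 and 8.45 with AZD4547, against 5.76 and 5.77 with aFGF (2.71, SE 0.05, adjusted p = 3.3e-11). All 3 of its probe sets rose. Its relative TMT1B, named after its values were seen, had 5.43 and 5.54 against 7.28 and 7.33 (-1.82, SE 0.07, adjusted p = 2.3e-08), so these related genes moved apart. NREP, a small neuronal regeneration protein, had 7.55 and 7.55 against 5.41 and 5.53 (2.08, SE 0.06). ATP2B4, a plasma membrane calcium pump, had 6.20 and 6.04 against 4.28 and 4.02 (1.97, SE 0.11). PRPH, the intermediate filament peripherin, rose by 1.61 (SE 0.08), ARG2, the mitochondrial arginase, by 1.61 (SE 0.09) and PNRC1, a nuclear receptor coregulator, by 1.60 (SE 0.08). The GABA transaminase ABAT, ARID5B, RET, ANKEF1 and PPP1R3C left dim levels of the aFGF cultures, so the sizes of their rises are uncertain.

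**Figure D2:**
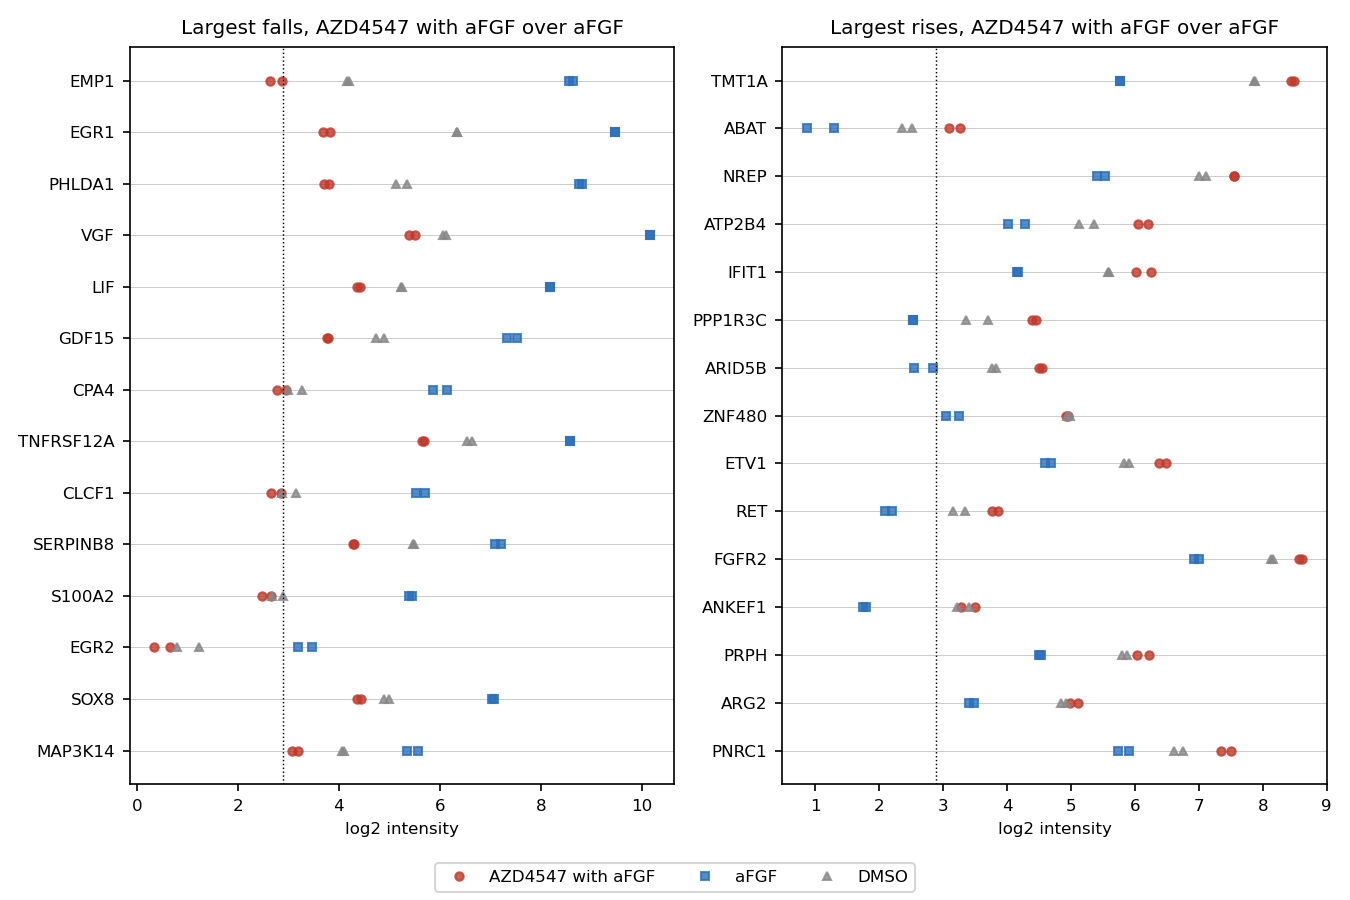
Log2 intensity (x axis) on every array of genes with the largest falls (left) and the largest rises (right), with circles for AZD4547 with aFGF, squares for aFGF and triangles for DMSO. The dotted line is the highest array median, 2.89, below which a gene is called dim; in every row the circles and squares lie apart.

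The FGF receptors and their adaptors split, with 6 of 13 up and 5 down (median 0.26). FGFR2, the mutated receptor of these cells, had 8.57 and 8.62 in the AZD4547 cultures, 6.92 and 7.01 in the aFGF cultures and 8.13 and 8.17 in the DMSO cultures, and its 10 probe sets above the dim range all rose. FGFRL1, a receptor that lacks the kinase domain, had 5.25 and 5.27 against 6.05 and 6.09 with aFGF (-0.81, SE 0.09, adjusted p = 4.3e-05). FGFR1 had 9.25 and 9.31 against 9.37 and 9.41, a difference of -0.11 with a 95% interval of -0.21 to -0.00 that did not pass the test (adjusted p = 0.13), although it passed without DMSO replicate 1 or DMSO replicate 2. FGFR4 fell by 0.40 (SE 0.08) and FGFR3 rose by 0.31 (SE 0.08), the first not called without aFGF replicate 1 and the second not called without any 1 of the 4 arrays with aFGF.

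Among the adaptors SHC1, which couples receptors to GRB2, changed most. It had 8.12 and 8.15 in the AZD4547 cultures, against 9.36 and 9.36 in the aFGF cultures (-1.22, SE 0.05, adjusted p = 2.8e-08). GAB1, the docking protein for PI3 kinase, had 5.06 and 5.16 against 4.43 and 4.42 (0.68, SE 0.09), and SOS2, a RAS exchange factor, 4.32 and 4.31 against 3.63 and 3.61 (0.69, SE 0.09). FRS2, the adaptor of the receptors themselves, fell by 0.57 (SE 0.12) to a dim mean of 2.54, a call lost when probe sets were averaged. Smaller calls for SOS1 (0.28), GRB2 (0.26) and the phosphatase PTPN11 (-0.25) were lost without aFGF replicate 1 or aFGF replicate 2, and those of GRB2 and PTPN11 also without AZD4547 replicate 1. All 3 were lost without AZD4547 replicate 2. FRS3 stood at 0.27 (adjusted p = 0.084). Counts over the 13 genes were 3 up and 3 down without aFGF replicate 1, and 3 up without aFGF replicate 2 or AZD4547 replicate 2.

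**Figure D3:**
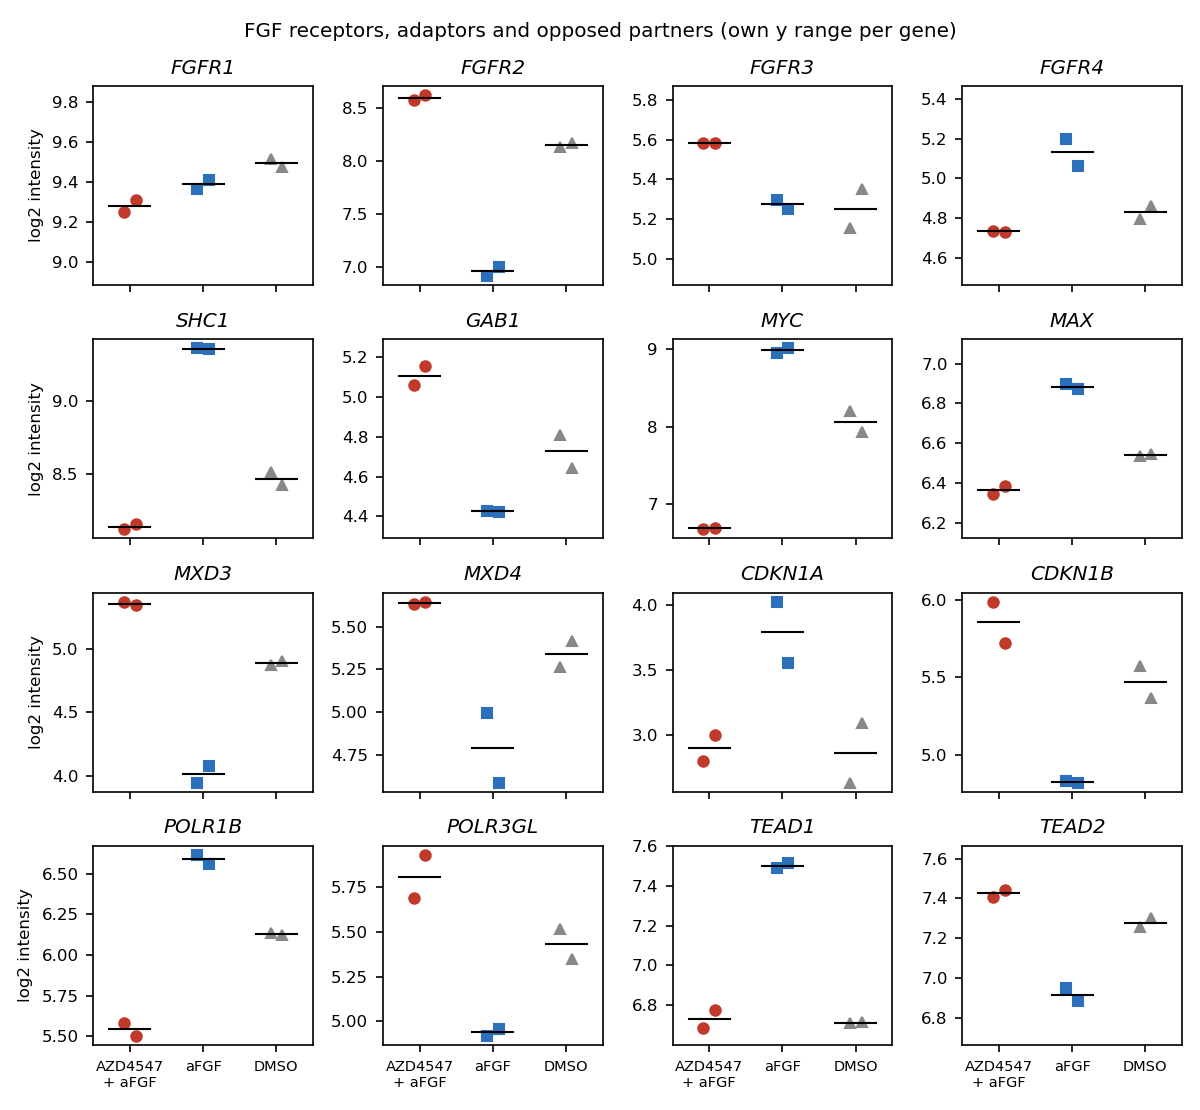
Log2 intensity (y axis, own range per gene) of 16 receptors, adaptors and partner genes in the AZD4547 with aFGF, aFGF and DMSO cultures. Each point is 1 array and each black line the mean of 2; FGFR2, GAB1, MXD3, MXD4, CDKN1B, POLR3GL and TEAD2 are lowest in the aFGF cultures, where FGFR4, SHC1, MYC, MAX, CDKN1A, POLR1B and TEAD1 are highest.

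Kinases of the ERK cascade itself were among those that did not pass. MAP2K1 had a log2 fold change of -0.04, MAPK3 of 0.09 and BRAF of 0.02, and none of these, named after their values were seen, passed the test. Of 22 measured members of the RAS to ERK list 6 rose and 2 fell (median 0.13). Among the ERK substrate kinases MKNK1 and MKNK2, which phosphorylate the cap-binding factor EIF4E, rose by 0.62 (SE 0.10) and 0.52 (SE 0.06), while the ribosomal S6 kinase RPS6KA3 fell by 0.66 (SE 0.10) and RPS6KA1 rose by 0.46 (SE 0.09). The 2 falls were 1 without aFGF replicate 1, aFGF replicate 2 or AZD4547 replicate 2.

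ERK feedback inhibitors fell in 6 and rose in 2 of 20 cases (median -0.14, or -0.09 without aFGF replicate 2). SPRY4, a Sprouty protein, had 7.51 and 7.57 with AZD4547, against 8.47 and 8.42 with aFGF (-0.90, SE 0.06, adjusted p = 9.8e-07). The nuclear ERK phosphatase DUSP5 fell by 0.53 (SE 0.07) and SPRED1, which brings neurofibromin to RAS, by 0.43 (SE 0.08). SPRY2, of the same family as SPRY4, had 8.96 and 8.92 against 8.49 and 8.55 (0.42, SE 0.05), and the receptor antagonist IL17RD rose by 0.57 (SE 0.06). Members that did not pass included SPRED2 (-0.07), DUSP1 (-0.08) and DUSP4, which was dim in both groups, all named after their values were seen.

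ETS factors, some of which ERK phosphorylates, fell in 5 (25%) and rose in 3 (15%) of 20 cases. Of all genes 10.1% fell and 15.6% rose, and 9 members of the list were dim in both groups (median -0.08). The list's median was -0.03 without AZD4547 replicate 1 and -0.17 without AZD4547 replicate 2. ETV1 had 6.37 and 6.49 with AZD4547, against 4.59 and 4.69 with aFGF, and its 7 probe sets above the dim range rose. Its close relatives ETV4 and ETV5 had small called changes of -0.30 and 0.16, named after their values were seen, and the call of ETV5 was lost without any 1 of the 4 arrays with aFGF. ERF, an ETS repressor that ERK exports from the nucleus, fell by 0.47 (SE 0.07). ELF4, ETS2 and ELK4 fell while dim in both groups. ELF4 and ELK4 were not called without aFGF replicate 1, ETS2 not without aFGF replicate 2, ELK4 and ETS2 not without AZD4547 replicate 1, and ELF4 and ETS2 not without AZD4547 replicate 2. The 3 rises were 1 without any 1 of the 4 arrays with aFGF, and the 5 falls were 3 without aFGF replicate 1 or AZD4547 replicate 1.

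Immediate early genes fell together: 22 of 37 fell and 1 rose, with a median of -0.59. EGR1, a zinc finger factor, had 3.68 and 3.82 in the AZD4547 cultures, 9.48 and 9.46 in the aFGF cultures and 6.34 and 6.34 in the DMSO cultures, with all 6 probe sets falling. Its promoter is shown for its 2 CArG boxes, the sites of serum response factor, which begin 105 and 83 bases before the start (chr5:138465229-138465508, plus strand, RefSeq table of GRCh38.p14, CArG boxes in capitals).
EGR1: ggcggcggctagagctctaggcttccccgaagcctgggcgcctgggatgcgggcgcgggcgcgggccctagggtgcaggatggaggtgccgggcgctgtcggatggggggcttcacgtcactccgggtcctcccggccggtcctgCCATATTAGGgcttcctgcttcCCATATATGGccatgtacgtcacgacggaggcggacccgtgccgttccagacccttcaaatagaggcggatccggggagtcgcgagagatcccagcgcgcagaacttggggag
FOSL1, the AP-1 subunit FRA1, had 3.87 and 3.97 against 6.21 and 6.18 (-2.28, SE 0.09, adjusted p = 2e-08). KLF10, a growth factor-induced repressor, had 6.06 and 5.82 against 8.08 and 8.15 (-2.18, SE 0.09). The other AP-1 subunits fell less, with JUNB at -1.56, JUND at -0.85 and FOS at -0.85, and FOSL2 (-0.11) and FOSB (-0.08) did not pass. EGR2 fell to a dim level. The 1 rise, KLF6 at 0.33, was not called without aFGF replicate 1, AZD4547 replicate 1 or AZD4547 replicate 2. JUNB, JUND, FOS, FOSL2, FOSB and KLF6 were named after their values were seen.

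Among 43 secreted ligands 28 were dim in both groups. In the list 7 fell (16.3%) and 5 rose (11.6%), beside 10.1% and 15.6% of all genes (median -0.06). VGF, a neuropeptide precursor, had 5.40 and 5.52 with AZD4547, against 10.16 and 10.15 with aFGF. LIF, a cytokine of the interleukin-6 family, had 4.42 and 4.35 against 8.18 and 8.18. GDF15, a stress-induced cytokine, had 3.76 and 3.78 against 7.52 and 7.33. All 3 were several-fold lower with no overlap, and the DMSO levels of each lay between. SCG2, a granin of secretory granules, fell by 1.57 (SE 0.11). TGFB2 rose by 0.95 (SE 0.14) from a dim level, and there were 3 rises without aFGF replicate 1, aFGF replicate 2 or AZD4547 replicate 2.

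The plasminogen system and matrix proteases held some of the deepest falls, with 8 of 24 down and 3 up (median -0.13, or -0.75 without dim genes). PLAT, the tissue plasminogen activator, had 4.49 and 4.42 against 6.13 and 6.21 with aFGF (-1.71, SE 0.08, adjusted p = 5e-08), and its 7 probe sets above the dim range all fell. SERPINB8, an intracellular serpin, had 4.29 and 4.28 against 7.21 and 7.09 (-2.86, SE 0.07). TIMP1, an inhibitor of matrix metalloproteinases, had 9.43 and 9.37 against 10.72 and 10.71 (-1.32, SE 0.05), while TIMP2, named after its values were seen, rose by 0.86 (SE 0.05). The 3 rises were 1 without aFGF replicate 2 or AZD4547 replicate 2.

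CPA4, a secreted carboxypeptidase, had 2.96 and 2.77 with AZD4547, against 6.13 and 5.86 with aFGF (-3.13, SE 0.13), and since it was dim with AZD4547 the size of its fall is uncertain. Its promoter is shown as that of the most changed member of the plasminogen list to hold the AP-1 site TGANTCA on either strand, with sites that begin 48 and 15 bases before the start (chr7:130292911-130293190, plus strand, GRCh38.p14, AP-1 sites in capitals).
CPA4: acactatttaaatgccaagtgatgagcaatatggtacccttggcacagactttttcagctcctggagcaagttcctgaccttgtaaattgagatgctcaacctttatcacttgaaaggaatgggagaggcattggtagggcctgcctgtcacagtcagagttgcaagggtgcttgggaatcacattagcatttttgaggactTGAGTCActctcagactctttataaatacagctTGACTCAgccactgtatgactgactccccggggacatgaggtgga
Of 15 list members with a promoter in the table, 6 (40.0%) held the AP-1 site, against 5.91% of the 14809 measured genes with one and 7.90% of all promoters in the table. The genes that fell at least 2-fold held it in 8.33% of cases, all genes that fell in 5.62% and all that rose in 3.49%.

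The MYC network moved both ways, with 3 of 13 down and 4 up (median 0.04). MYC, the growth-promoting factor that pairs with MAX at E-boxes, had 6.67 and 6.69 in the AZD4547 cultures, 8.96 and 9.01 in the aFGF cultures and 8.20 and 7.93 in the DMSO cultures. MAX had 6.35 and 6.38 against 6.90 and 6.87 with aFGF (-0.52, SE 0.06, adjusted p = 4.5e-05), and its 8 probe sets above the dim range were all lower. MXD3, a repressive partner of MAX, had 5.37 and 5.34 against 3.95 and 4.08 (1.34, SE 0.08, adjusted p = 6.1e-07), although 1 of its 2 probe sets above the dim range differed in direction. MXD4 averaged 5.64 ± 0.01 against 4.79 ± 0.29 (SD, n = 2 each; log2 fold change 0.84, SE 0.11). MYCL, a relative of MYC, rose by 1.21 (SE 0.12) from a dim level. MXI1 rose by 0.34, a call lost without any 1 of the 4 arrays with aFGF, and MYCN, dim with AZD4547, fell by 0.46, a call lost without aFGF replicate 1 or AZD4547 replicate 2. MNT (0.04), MXD1 (0.15), MLX (-0.13), MLXIP (0.07) and MLXIPL (0.00) did not pass, nor did MGA (-0.30, adjusted p = 0.061), which passed without AZD4547 replicate 2.

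Ribosome biogenesis factors, which cut, modify and assemble ribosomal RNA in the nucleolus, fell in 56 of 58 cases and rose in 0. Their median was -0.64 and their range, over all 58, -1.13 to -0.15. NOP16, an assembly factor of the large subunit, had 7.74 and 7.52 in the AZD4547 cultures, 8.73 and 8.80 in the aFGF cultures and 8.35 and 8.34 in the DMSO cultures. WDR74, also of the large subunit, had 5.33 and 5.33 against 6.42 and 6.38 with aFGF (-1.07, SE 0.07). WDR3, a component of the small subunit processome, averaged 6.03 ± 0.12 against 6.97 ± 0.04 (SD, n = 2 each; log2 fold change -0.95, SE 0.09), and RRP12 fell by 0.94 (SE 0.08). The smallest falls, named after their values were seen, were those of NPM1 (-0.16), IMP3 (-0.18), NHP2 (-0.21) and the rRNA methyltransferase FBL (-0.22). Calls of the first 3 were lost without any 1 of the 4 arrays with aFGF and that of FBL without aFGF replicate 2. NOC4L (-0.25) and NOP10 (-0.15), of 58, did not pass.

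WDR43, a small subunit processome factor, had 5.55 and 5.36 with AZD4547, against 6.45 and 6.46 with aFGF (2.01-fold lower, SE 0.08 on the log2 scale). Its promoter is shown as that of the most changed member to hold the E-box CACGTG, which begins 3 bases after the start (chr2:28894417-28894696, plus strand, GRCh38.p14, E-box in capitals).
WDR43: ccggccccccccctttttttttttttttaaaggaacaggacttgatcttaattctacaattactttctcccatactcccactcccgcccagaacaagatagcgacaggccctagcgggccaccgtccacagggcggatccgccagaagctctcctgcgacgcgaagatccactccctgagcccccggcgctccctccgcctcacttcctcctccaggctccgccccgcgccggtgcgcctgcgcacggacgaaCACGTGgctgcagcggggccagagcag
The E-box was held by 19 of 49 ribosome biogenesis promoters (38.8%), by 8.46% of measured genes with a promoter and by 7.28% of all promoters in the table. The share was 12.4% among all genes that fell, 10.7% among those that fell at least 2-fold and 9.03% among all that rose.

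Cytosolic ribosomal proteins, the structural parts of the same particle, stayed within a narrow range. Of 75 measured, 0 rose and 1 fell, with a median of -0.02, and E-boxes were held by 3 of 59 of their promoters (5.08%). The exception was RPL35A, with 7.82 and 7.77 in the AZD4547 cultures, against 8.48 and 8.50 in the aFGF cultures (-0.70, SE 0.06, adjusted p = 4.7e-06). Without DMSO replicate 1 or DMSO replicate 2 the counts were 5 rises and 6 falls. Ribosomal protein genes have many processed copies, and averaging all their probe sets gave 3 rises and 11 falls.

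The RNA polymerases that transcribe ribosomal and transfer RNA fell in 18 and rose in 4 of 34 cases (median -0.29). POLR1B, the second largest subunit of polymerase I, had 5.58 and 5.50 with AZD4547, against 6.62 and 6.56 with aFGF (-1.05, SE 0.06), and its 6 probe sets all fell. POLR1C, shared by polymerases I and III, fell by 0.83 (SE 0.07) and POLR1G by 0.78 (SE 0.10). The alternative subunits of polymerase III moved apart. POLR3GL, the form of differentiated cells, had 5.69 and 5.93 against 4.92 and 4.96 (0.87, SE 0.09, adjusted p = 3.4e-05), while POLR3G, the form of proliferating and stem cells, had dim values of 1.41 and 1.93 against 2.79 and 2.87 (-1.16, SE 0.17). The 4 rises were 1 without aFGF replicate 1, aFGF replicate 2 or AZD4547 replicate 2, and 2 without AZD4547 replicate 1.

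**Figure D4:**
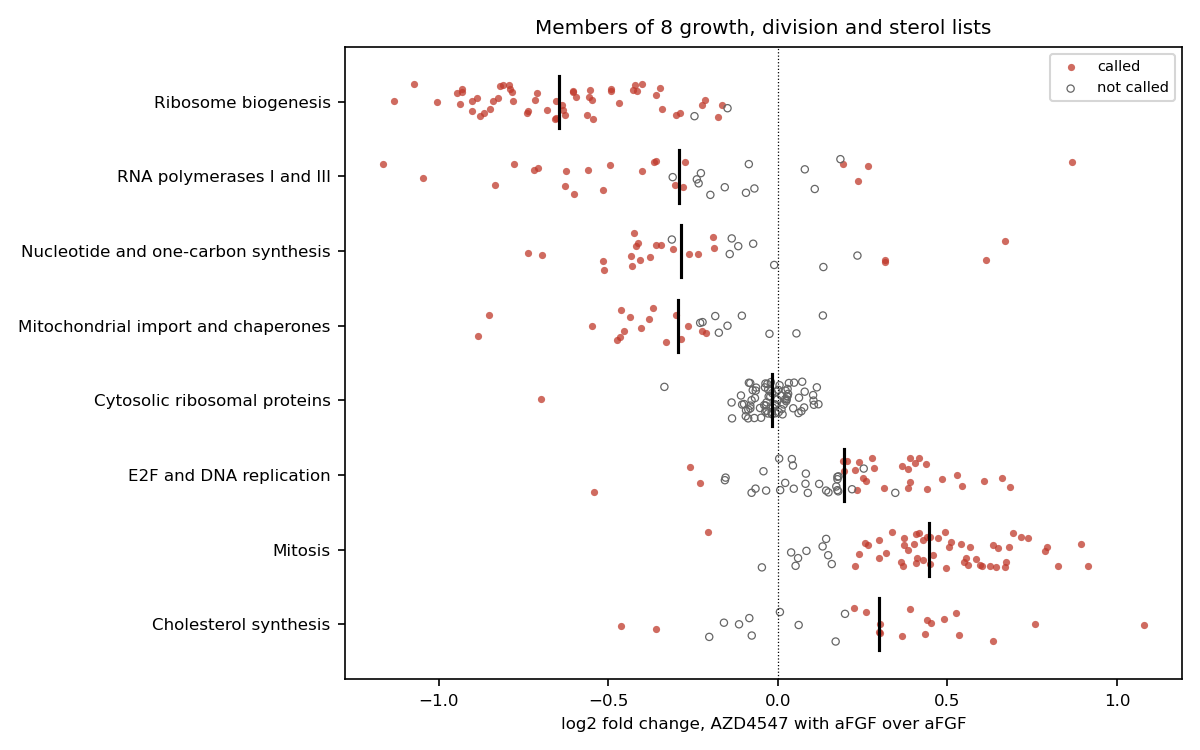
Log2 fold change of AZD4547 with aFGF over aFGF (x axis) for each measured member of 8 lists, with filled points for called genes, open points for others and a black bar at the median. Ribosome biogenesis genes have a median of -0.64 and cytosolic ribosomal proteins one of -0.02; mitosis genes have a median of 0.44.

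Purine, pyrimidine and one-carbon synthesis fell in 18 and rose in 4 of 30 cases (median -0.29). PPAT, the committing enzyme of purine synthesis, had 5.23 and 5.41 with AZD4547, against 6.05 and 5.98 with aFGF (-0.70, SE 0.08), and the phosphoribosyl pyrophosphate synthetase PRPS2 fell by 0.52 (SE 0.08). SRM, which makes spermidine, fell by 0.74 (SE 0.05). The serine branch differed: PHGDH, the first enzyme of serine synthesis, had 7.16 and 7.22 against 6.58 and 6.58 (0.61, SE 0.06), and the cytosolic SHMT1 rose by 0.67 (SE 0.08), while the mitochondrial MTHFD2, named after its values were seen, fell by 0.43 (SE 0.06). Promoters with an E-box made up 26.9% of the 26 found.

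Amino acid transporters fell in 8 and rose in 2 of 24 cases (median -0.18, or -0.11 without dim genes). SLC7A5 and SLC3A2, which form the leucine carrier LAT1 together, fell by 1.32 (SE 0.07) and 0.73 (SE 0.06). SLC7A1, the arginine and lysine carrier, had 5.16 and 5.24 with AZD4547, against 6.43 and 6.30 with aFGF (-1.17, SE 0.07). SLC38A2, the glutamine and alanine carrier SNAT2, fell by 0.53 (SE 0.05) and SLC43A1 by 0.69 (SE 0.10). The 2 rises were 1 without aFGF replicate 1, AZD4547 replicate 1 or AZD4547 replicate 2.

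Of 22 cytosolic tRNA synthetases and their scaffold 10 fell and 1 rose (median -0.11), led by WARS1 for tryptophan (-0.63, SE 0.06), HARS1 for histidine (-0.59, SE 0.07) and FARSA for phenylalanine (-0.54, SE 0.07). RARS1 fell by 0.38, a call lost without aFGF replicate 1, aFGF replicate 2 or AZD4547 replicate 2. The 1 rise, QARS1 at 0.33, named after its values were seen, was not called without aFGF replicate 1 or AZD4547 replicate 1, and there were 2 rises without DMSO replicate 1 or DMSO replicate 2. Translation initiation factors fell in 13 and rose in 1 of 39 cases (median -0.11). EIF3J had 6.05 and 6.11 with AZD4547, against 6.89 and 6.90 with aFGF (-0.81, SE 0.06), EIF2S1, the regulated subunit of the factor that brings initiator tRNA, fell by 0.60 (SE 0.06) and EIF6, which also acts in large subunit maturation, by 0.51 (SE 0.07). The helicase EIF4A1 fell by 0.36 (SE 0.05), and EIF1AX by 0.40, a call lost without any 1 of the 4 arrays with aFGF. The 13 falls were 7 without aFGF replicate 1 and 8 without aFGF replicate 2, AZD4547 replicate 1 or AZD4547 replicate 2, and the 1 rise was 4 without DMSO replicate 1 and 3 without DMSO replicate 2.

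Mitochondrial protein import and chaperones fell in 17 and rose in 0 of 26 cases (median -0.29). GRPEL1, the exchange factor of the matrix HSP70 chaperone, had 6.48 and 6.45 with AZD4547, against 7.33 and 7.36 with aFGF (-0.88, SE 0.06, adjusted p = 1.3e-06). CHCHD4, the oxidoreductase that traps proteins in the intermembrane space, had 5.24 and 5.16 against 6.03 and 6.07 (-0.85, SE 0.07). The chaperone TRAP1 fell by 0.55 (SE 0.07) and the import receptor TOMM70 by 0.47 (SE 0.06), and TIMM8A by 0.46, a call lost without any 1 of the 4 arrays with aFGF. Without DMSO replicate 1 or DMSO replicate 2 there was 1 rise. Complex I of the respiratory chain had 18 of 37 up, 1 down and a median of 0.19. NDUFB1 had 8.95 and 8.85 against 8.36 and 8.48 (0.48, SE 0.08), NDUFA2 rose by 0.37 (SE 0.06) and NDUFS7 by 0.36 (SE 0.06). Complex I had 7 rises without aFGF replicate 1 or aFGF replicate 2 and 6 without AZD4547 replicate 1, and NDUFV3 (0.35) was called in none of these 3. The 1 fall was lost without aFGF replicate 1.

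In the ATF4 and unfolded protein response list 7 of 25 fell (28%) and 4 rose (16%), beside 10.1% and 15.6% of all genes (median 0.00). CEBPB, a transcription factor of stress and differentiation, had 6.33 and 6.44 with AZD4547, against 7.37 and 7.41 with aFGF (-1.01, SE 0.06, adjusted p = 6e-07). DDIT3, the stress factor CHOP, fell by 0.90 (SE 0.12) to a dim level and the pseudokinase TRIB3 by 0.66 (SE 0.08). SESN2, a leucine sensor that restrains mTORC1, had 5.33 and 5.52 against 4.64 and 4.63 (0.79, SE 0.09). ATF4 itself, named after its values were seen, stood at 0.00. Counts were 2 rises and 4 falls without aFGF replicate 1 or aFGF replicate 2, and 4 falls without AZD4547 replicate 2.

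In the list of D cyclins, CDKs and inhibitors 9 of 22 rose and 3 fell (median 0.17, or 0.26 without AZD4547 replicate 2). CDKN1B, the inhibitor p27 of CDK2, had 5.99 and 5.72 in the AZD4547 cultures, 4.83 and 4.82 in the aFGF cultures and 5.57 and 5.37 in the DMSO cultures. CDKN2C, the CDK4 and CDK6 inhibitor p18, had 7.77 and 7.69 against 6.65 and 6.79 with aFGF (1.01, SE 0.06), and CDKN2D, the related p19, rose by 0.73 (SE 0.09). CDKN1A, the inhibitor p21, ran against them, averaging 2.90 ± 0.14 against 3.79 ± 0.33 (SD, n = 2 each; log2 fold change -0.89, SE 0.18, limma adjusted p = 0.0028). It was not called without aFGF replicate 1 or AZD4547 replicate 1. CCND3 (-0.00), named after its values were seen, was the D cyclin above the dim range, and CCND1 and CCND2 were dim. The 3 falls were 1 without aFGF replicate 2.

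In the E2F and replication list 26 of 56 rose and 3 fell (median 0.19). E2F7, a repressor of the E2F family, had 5.67 and 5.60 with AZD4547, against 4.96 and 4.95 with aFGF (0.68, SE 0.07), thymidine kinase TK1 rose by 0.61 (SE 0.06) and the clamp loader RFC4 by 0.54 (SE 0.05). E2F6, another repressor, fell by 0.54 (SE 0.07). The count of rises was 14 without aFGF replicate 1, 15 without aFGF replicate 2 and 17 without AZD4547 replicate 1, and the 3 falls were 1 without aFGF replicate 1 or AZD4547 replicate 1.

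Mitosis genes rose in 52 of 62 cases and fell in 1 (median 0.44). KIF20A, a kinesin of cytokinesis, had 7.38 and 7.37 in the AZD4547 cultures, 6.51 and 6.45 in the aFGF cultures and 7.28 and 7.04 in the DMSO cultures. KNL1, a scaffold of the kinetochore, had 6.93 and 6.80 against 6.07 and 6.01 with aFGF (0.83, SE 0.07), and the kinetochore proteins CENPI and SPC24 rose by 0.79 (SE 0.10) and 0.79 (SE 0.09). Cyclin B1, CCNB1 (0.08), cyclin A2, CCNA2 (0.16), and the kinase PLK1 (0.14) did not pass, and the checkpoint protein MAD2L1 was the 1 fall (-0.20), lost without aFGF replicate 2, AZD4547 replicate 1 or AZD4547 replicate 2. CCNB1, CCNA2, PLK1 and MAD2L1 were named after their values were seen.

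TOP2A, the topoisomerase that untangles chromosomes, had 8.38 and 8.39 with AZD4547, against 7.57 and 7.38 with aFGF (0.91, SE 0.06, adjusted p = 1.7e-06). Its promoter is shown as that of the most changed mitosis gene to hold the cell cycle genes homology region (CHR) TTTGAA on either strand, at 194 and 151 bases before the start (chr17:40417867-40418146, minus strand, GRCh38.p14, CHR in capitals).
TOP2A: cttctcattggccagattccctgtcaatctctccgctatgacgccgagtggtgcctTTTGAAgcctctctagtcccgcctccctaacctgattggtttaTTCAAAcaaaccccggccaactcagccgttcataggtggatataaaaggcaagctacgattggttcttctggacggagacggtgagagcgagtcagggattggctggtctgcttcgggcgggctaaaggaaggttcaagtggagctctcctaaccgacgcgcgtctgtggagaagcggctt
The CHR was held by 36 of 52 mitosis promoters (69.2%), against 12.4% of measured genes with a promoter and 15.6% of all promoters in the table. In the E2F and replication list 3 of 48 promoters held it (6.25%). Its share was 10.7% among all genes that rose, 11.6% among those that rose at least 2-fold and 9.03% among all that fell.

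Of 35 homologous recombination and Fanconi anemia genes 11 rose and 1 fell (median 0.16). BARD1, the partner of BRCA1, had 4.88 and 4.95 with AZD4547, against 4.36 and 4.07 with aFGF (0.70, SE 0.10), BRCA1 itself rose by 0.53 (SE 0.08) and the ubiquitin ligase FANCL by 0.63 (SE 0.09). FANCC (0.45) was not called without aFGF replicate 2 or AZD4547 replicate 1, and RAD54B (0.39) not without aFGF replicate 1, aFGF replicate 2 or AZD4547 replicate 2. Rises numbered 6 without aFGF replicate 1, aFGF replicate 2 or AZD4547 replicate 1 and 7 without AZD4547 replicate 2. The 1 fall was lost without any 1 of the 4 arrays with aFGF, and there were 2 without DMSO replicate 1 or DMSO replicate 2.

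FOXO factors are kept out of the nucleus by growth factor signalling through AKT. Of 27 FOXO factors and target genes 13 rose and 1 fell (median 0.34). The median was 0.20 without aFGF replicate 2 and 0.13 with probe sets averaged. CCNG2, a cyclin that restrains division, had 5.89 and 5.73 in the AZD4547 cultures, 4.17 and 4.30 in the aFGF cultures and 5.09 and 5.07 in the DMSO cultures. CITED2, a CBP/p300-binding coregulator, had 4.88 and 4.92 against 3.55 and 3.66 with aFGF (1.30, SE 0.09), SESN1 rose by 0.88 (SE 0.08) and catalase, CAT, by 0.65 (SE 0.08). ERBB3, a receptor of the EGF receptor family, rose by 1.34 (SE 0.14) from a dim level, a call lost without probe sets ending in _x_at. PDK4 (0.06) and FBXO32 (-0.28), also textbook FOXO targets, did not pass and were named after their values were seen. The FOXO site GTAAACA was held by 2 of 23 of their promoters (8.70%), against 2.57% of measured genes with a promoter and 3.44% of all promoters in the table. The share was higher in other lists, among them the BTG and quiescence genes with 4 of 23 (17.4%). It was 2.41% among all genes that rose, 2.48% among those that rose at least 2-fold and 2.59% among all that fell.

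Of 25 antiproliferative BTG, TOB and related quiescence genes 13 rose and 5 fell (median 0.27). The median was 0.17 without dim genes or without probe sets ending in _x_at, and 0.04 with probe sets averaged. BTG2 had 5.94 and 5.93 with AZD4547, against 4.65 and 4.95 with aFGF (1.14, SE 0.09), TOB1 rose by 0.63 (SE 0.07) and TSC22D3, the glucocorticoid-induced leucine zipper, by 0.98 (SE 0.07). BTG3, of the same family, stood at -0.45 and was among the falls, as were the arrestins ARRDC3 and ARRDC4 (-0.43 each), all 3 named after their values were seen, with ARRDC4 not called without aFGF replicate 1. ZBTB20 (0.70) was not called without aFGF replicate 1, aFGF replicate 2 or AZD4547 replicate 2. Rises numbered 7 without any 1 of the 4 arrays with aFGF, and falls 2 without aFGF replicate 1 and 3 without any 1 of the other three.

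In the BCL2 family 3 of 21 genes (14.3%) rose and 3 (14.3%) fell, beside 15.6% and 10.1% of all genes (median -0.09). BAD, a death promoter that survival kinases phosphorylate, had 5.98 and 6.04 with AZD4547, against 5.06 and 5.07 with aFGF (0.95, SE 0.07, adjusted p = 1.6e-06). BNIP3L, a mitophagy receptor, rose by 0.68 (SE 0.06). BCL2L12 fell by 0.41 (SE 0.05) and BID by 0.37 (SE 0.07). BMF (0.43) was not called without aFGF replicate 2, without AZD4547 replicate 2 or with probe sets averaged, and 1 of its 4 probe sets was higher. BCL2L11, the death promoter BIM, named after its values were seen, stood at 0.11 without passing the test.

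Receptor tyrosine kinases other than the FGF receptors rose in 8 (24.2%) and fell in 2 (6.06%) of 33 cases (median 0.03). Of all genes 15.6% rose and 10.1% fell, and 17 genes of the list were dim in both groups. DDR2, a collagen receptor, had 6.03 and 6.28 with AZD4547, against 4.62 and 4.62 with aFGF (1.53, SE 0.09, adjusted p = 4e-07). RET, the GDNF family receptor, had 3.86 and 3.76 against dim values of 2.20 and 2.09. EPHB2, an ephrin receptor, rose by 0.56 (SE 0.09), while EPHA2 of the same family fell by 0.82 (SE 0.08). MERTK, a receptor of engulfment, had 4.53 and 4.62 against 5.63 and 5.68 (-1.07, SE 0.08). EGFR rose by 0.46, a call lost without aFGF replicate 1, aFGF replicate 2 or AZD4547 replicate 2, and ERBB2 (0.06) did not pass, both named after their values were seen. Rises numbered 5 without aFGF replicate 2.

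Of 27 cholesterol synthesis genes 16 rose and 2 fell (median 0.30). LSS, which forms lanosterol, had 5.64 and 5.57 in the AZD4547 cultures, 4.46 and 4.58 in the aFGF cultures and 5.21 and 5.28 in the DMSO cultures. INSIG2, which retains the sterol sensor in the endoplasmic reticulum, rose by 0.76 (SE 0.11), EBP by 0.63 (SE 0.06), DHCR7 by 0.53 (SE 0.07) and mevalonate kinase MVK by 0.53 (SE 0.09). HMGCS1 (0.06), an early enzyme of the pathway, did not pass and was named after its values were seen. Of 25 fatty acid synthesis genes 13 rose and 1 fell (median 0.20, or 0.11 with probe sets averaged). SCD5, a stearoyl desaturase, had 6.12 and 6.01 against 5.20 and 5.10 (0.91, SE 0.08), with 2 of its 4 probe sets above the dim range differing in direction. The desaturases FADS2 and FADS1 rose by 0.60 (SE 0.06) and 0.51 (SE 0.08), and the acetate-activating ACSS2 by 0.64 (SE 0.08). Rises in this list numbered 6 without aFGF replicate 1 and 7 without aFGF replicate 2 or AZD4547 replicate 1, and the 1 fall was lost without any 1 of the 4 arrays with aFGF.

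The glycolysis and pyruvate list had 12 rises and 3 falls among 34 (median 0.09, or 0.02 with probe sets averaged). PFKFB4, which sets fructose 2,6-bisphosphate, had 5.49 and 5.58 with AZD4547, against 3.99 and 4.20 with aFGF (1.44, SE 0.09). The kinases PDK2 and PDK1, which shut pyruvate dehydrogenase, rose by 0.96 (SE 0.13) and 0.68 (SE 0.09), while the phosphatase PDP1, which opens it, had 4.60 and 4.60 against 5.28 and 5.18 (-0.63, SE 0.08). GAPDH (-0.01) and ENO1 (0.02), named after their values were seen, did not pass. Rises numbered 7 without aFGF replicate 1 and 6 without aFGF replicate 2, and there were 5 falls without DMSO replicate 1 or DMSO replicate 2.

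Of 22 glycogen and mitochondrial fuel genes 11 rose and 2 fell (median 0.19, or 0.30 without dim genes). PPP1R3C, which brings protein phosphatase 1 to glycogen, had 4.39 and 4.45 with AZD4547, against dim values of 2.53 and 2.52 with aFGF. GBE1, the branching enzyme of glycogen, had 5.97 and 6.03 against 7.22 and 7.31 (-1.27, SE 0.06, adjusted p = 1e-07), against the direction of that list. PPARA, the nuclear receptor of fatty acid oxidation, averaged 4.26 ± 0.02 against 3.03 ± 0.05 (SD, n = 2 each; log2 fold change 1.23, SE 0.10). The 2 falls were 1 without aFGF replicate 1, aFGF replicate 2 or AZD4547 replicate 1.

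Among 52 lysosome and autophagy genes were 17 rises and 4 falls (median 0.06). WIPI1, of the early autophagosome, rose by 0.70 (SE 0.10), the sterol carrier NPC2 by 0.67 (SE 0.07) and the beta-galactosidase GLB1 by 0.62 (SE 0.06), while the protease CTSC fell by 0.62 (SE 0.07). CTSF (0.74), dim with aFGF, was not called without aFGF replicate 1 or AZD4547 replicate 1. Rises numbered 8 without aFGF replicate 1, 10 without aFGF replicate 2 and 9 without AZD4547 replicate 1. Falls numbered 1 without aFGF replicate 1, aFGF replicate 2 or AZD4547 replicate 1, 2 without AZD4547 replicate 2, and 7 without DMSO replicate 1 or DMSO replicate 2.

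Among 51 interferon response genes were 17 rises (33.3%) and 3 falls (5.88%), beside 15.6% and 10.1% of all genes (median 0.05). In this list 21 genes were dim in both groups, and the median was 0.31 without dim genes. IFIT1, which binds foreign RNA, had 6.26 and 6.02 in the AZD4547 cultures, 4.17 and 4.16 in the aFGF cultures and 5.57 and 5.60 in the DMSO cultures. Its promoter is shown for its 2 interferon-stimulated response elements (ISRE), which begin 116 and 103 bases before the start (chr10:89392373-89392652, plus strand, GRCh38.p14, ISRE in capitals).
IFIT1: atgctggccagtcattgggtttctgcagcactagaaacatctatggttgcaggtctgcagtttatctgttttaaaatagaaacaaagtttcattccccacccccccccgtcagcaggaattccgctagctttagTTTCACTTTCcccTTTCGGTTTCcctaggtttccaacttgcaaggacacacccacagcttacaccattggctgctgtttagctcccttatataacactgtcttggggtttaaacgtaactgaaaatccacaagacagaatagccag
PSMB9, an immunoproteasome subunit, had 4.85 and 5.06 against 3.75 and 3.76 with aFGF (1.20, SE 0.10), ISG15, a ubiquitin-like modifier, 6.68 and 6.65 against 5.74 and 5.63, and STAT2, the signal transducer of type I interferon, 5.26 and 5.36 against 4.40 and 4.48. DDX60 rose by 1.07 (SE 0.12) from a dim level. IRF3, the factor that starts interferon transcription, stood at -0.82 and IRF1 at -0.41, both called and both named after their values were seen. The ISRE was held by 24 of 38 promoters of the list (63.2%), against 3.05% of measured genes with a promoter and 3.65% of all promoters in the table. Its share was 2.57% among all genes that rose, 4.13% among those that rose at least 2-fold and 3.22% among all that fell.

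Of 40 integrin and matrix genes 9 rose (22.5%) and 5 fell (12.5%), beside 15.6% and 10.1% of all genes (median -0.01). In this list 20 genes were dim in both groups. ITGB8, an integrin that activates latent TGF-beta, had 3.01 and 2.86 with AZD4547, against 5.05 and 5.03 with aFGF (-2.11, SE 0.11). Its partner ITGAV fell by 0.77 (SE 0.05). THBS1, thrombospondin, had 7.62 and 7.57 against 9.35 and 9.44 (-1.80, SE 0.09). Fibronectin, FN1, had 5.23 and 5.49 against 4.34 and 4.31 (1.03, SE 0.10), and the basement membrane collagen COL4A5 rose by 0.98 (SE 0.09).

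In the WNT and YAP list 7 of 29 rose (24.1%) and 5 fell (17.2%), beside 15.6% and 10.1% of all genes (median -0.05). WWTR1, the coactivator TAZ, had 5.28 and 5.31 with AZD4547, against 6.98 and 7.10 with aFGF (-1.75, SE 0.08, adjusted p = 8.7e-08), while its relative YAP1 (0.08), named after its values were seen, did not pass. Of their DNA-binding partners, TEAD1 had 6.69 and 6.78 against 7.49 and 7.52 (-0.77, SE 0.06) and TEAD2 had 7.41 and 7.44 against 6.95 and 6.88 (0.51, SE 0.06). The WNT receptor FZD2 rose by 1.01 (SE 0.07), and ZNRF3, which removes such receptors from the surface, fell by 0.81 (SE 0.11).

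A cluster of zinc finger genes on the long arm of chromosome 19 was listed because ZNF480 lies in it. ZNF480 had 4.92 and 4.94 in the AZD4547 cultures, 3.25 and 3.05 in the aFGF cultures and 4.99 and 4.94 in the DMSO cultures. In the cluster 6 of 31 rose and 1 fell, with a median of 0.03, beside 15.6% and 10.1% of all genes. ZNF83 rose by 0.49 (SE 0.08), and ZNF836 (0.66), ZNF610 (0.50) and ZNF613 (0.40) were dim with aFGF. ZNF610 was not called without aFGF replicate 2, and ZNF613 not without aFGF replicate 1, AZD4547 replicate 1 or AZD4547 replicate 2. The 1 fall was lost without aFGF replicate 1, aFGF replicate 2 or AZD4547 replicate 2, and there were 3 without DMSO replicate 1 or DMSO replicate 2.

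The promoter table holds 250 bases before and 50 after each start, for 14809 of the measured genes, and 280 bases of each printed promoter are shown. All 6 motifs were searched on both strands in all 35 lists and in the called genes, and none of the motifs contains another. CArG was held by 3 of 27 immediate early promoters (11.1%), against 1.29% of measured genes with a promoter and 1.31% of all promoters. Its share was 0.948% among all genes that fell, 2.38% among those that fell at least 2-fold and 1.32% among all that rose. Apart from EGR1, chosen as the immediate early gene with the largest fall, each printed gene was chosen as the most changed called member to hold its list's motif. The motifs set beside each list here were chosen after all of these shares had been seen. NOP16 and WDR74, which fell further than WDR43, held no E-box in the window. A match describes the sequence and does not show that a factor binds there.

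**Figure D5:**
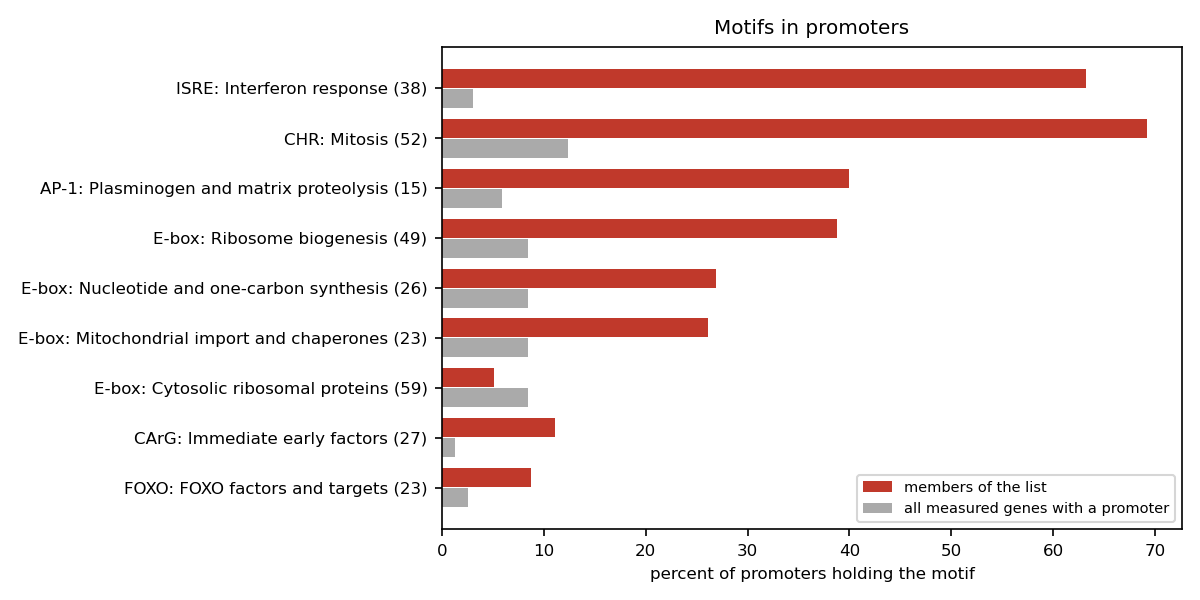
Percent of promoters (x axis) that hold the named motif among the members of a list (red, number of promoters in parentheses) and among all measured genes with a promoter (grey). The CHR is held by 69.2% of mitosis promoters and the ISRE by 63.2% of interferon response promoters, and E-boxes by 38.8% of ribosome biogenesis and 5.08% of cytosolic ribosomal protein promoters.

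The cells were checked against markers of their labelled tissue and of other cell types. Of 11 endometrial epithelial markers 6 were below the highest array median in all 3 groups, namely CDH1, EPCAM, KRT8, KRT19, PAX8 and PGR. The adhesion proteins CDH1 and EPCAM and the keratins KRT8 and KRT19 were thus dim. The keratin KRT18 was above that median, as were HOXA10, HOXA11, ESR1 and EMX2. The summed intensity of the list was 232 to 264 in the AZD4547 cultures, 199 to 214 in the aFGF cultures and 230 to 244 in the DMSO cultures. HOXA10, a homeobox factor of the uterus, rose by 0.45 (SE 0.11), a call lost without aFGF replicate 1 or AZD4547 replicate 1, EMX2 rose by 0.53 (SE 0.11) and KRT18 fell by 0.53 (SE 0.09). Fibroblast markers were dim in 5 of 7 cases with AZD4547 and in 6 of 7 with aFGF, with COL1A2 at a mean of 9.79 with AZD4547 and 9.75 with aFGF, and COL3A1 rose by 0.77 (SE 0.11) from a dim level. The summed intensity of the fibroblast list was 898 to 923 with AZD4547, 880 to 883 with aFGF and 729 to 827 with DMSO. With AZD4547 and with aFGF nearly all of that sum came from COL1A2, so it does not describe the list as a set. No endothelial, leukocyte or smooth muscle marker passed the test, of 6, 6 and 5 measured. Their part in the results was not tested.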

How the data were processed

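RNA of 6 AN3-CA cultures, 2 in each of 3 groups, was hybridised as biotin-labelled cRNA to 1-colour arrays. The deposited values are linear intensities per probe set, made by the authors with RMA per the submitters' processing notes; for the array type and the return to the linear scale, nothing is stated in the labels used. The number of arrays limits the precision. The deposited ratio and p-value columns were not used.

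Of 49293 probe sets 47340 had 1 gene symbol, 1457 several and 496 none, and 47089 matched the RefSeq gene table by Entrez ID. Each of 19040 genes was represented by its brightest single-symbol probe set (mean over 6 arrays), as log2. limma 3.58.1 in R 4.3.3 was fitted over all 6 arrays with an intensity trend and tested on simulated data, and tables and figures were made in Python 3.11.15. Genes with an adjusted p under 0.05 were called. No pseudocount and no filter were used, and alternatives to both were tried, with other choices of probe set, centring, arrays, variance prior and a replicate block.

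The comparison's gene lists and the rule for naming genes were chosen with earlier results of these data known. From the called genes above the highest array median, the rule took 15 with the strongest rise and 15 with the strongest fall, then at most 5 called genes per list by size of change, and all FGF receptor and MYC network genes. Genes outside it, those that illustrate members that did not pass and the markers included, were chosen after their values were seen. Some genes are not reported here.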

Additional observations from a re-analysis of the deposited data

How the results depend on the processing

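The counts of called genes depended most on the replicates. Leaving out 1 array at a time gave 3046 to 5667 genes in all, 1830 to 3391 upward and 1153 to 2278 downward. The counts were lowest without an aFGF array, at 3047 in all (1894 upward, 1153 downward) without replicate 1 and 3046 (1830 and 1216) without replicate 2, and AZD4547 replicate 1 left 3236 (1906 upward). These fits hold fewer samples. The other alternatives kept all 3 counts within 1.5 times of 4894, 2964 and 1930. Whether the replicate numbers pair the cultures is not known. Deviations of same-numbered cultures correlated at -0.053 between the AZD4547 and aFGF groups, 0.143 between AZD4547 and DMSO and 0.053 between aFGF and DMSO. With 2 arrays a group these values cannot settle it. A replicate block gave 5161 genes (3116 upward, 2045 downward) and lost no call among the named genes. Of 206 genes named by the rule 195 were called, and between 176 and 181 stayed called without 1 of the 4 arrays with aFGF, 186 without the intensity trend and 191 with probe sets averaged. No named gene that was called here or under an alternative changed direction under that alternative. The signs of genes called in neither were not compared. Without the intensity trend rises numbered 6 in complex I, 17 in the E2F list, 11 in the lysosome list, 7 in the BTG list, 8 in fatty acid synthesis and 6 in glycolysis. Dim signal limits the size of a change: 263 called genes were dim in both groups.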

Other observations

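Most genes that changed at least 2-fold were in none of the 35 lists: 77 of the 116 that fell and 124 of the 149 that rose. The genes below come from these and were chosen after their values were seen. ANXA1, the phospholipid-binding annexin A1, had log2 intensities of 7.43 and 7.27 in the AZD4547 cultures, against 9.51 and 9.55 in the aFGF cultures (log2 fold change -2.18, SE 0.07, limma adjusted p = 2.4e-09). UPP1, which splits uridine, had 6.12 and 6.16 against 8.01 and 8.04 (-1.88, SE 0.06). HSD17B1, which converts estrone to estradiol, had 5.13 and 5.08 against 6.76 and 6.76 (-1.65, SE 0.07). ARC, an activity-regulated gene of neurons, fell by 2.27 (SE 0.10) and the circadian repressor BHLHE40 by 1.91 (SE 0.11). All of these were highest in the aFGF cultures.

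Regulatory subunits of PI3 kinase moved apart. PIK3R1 had 7.49 and 7.29 with AZD4547, against 8.57 and 8.70 with aFGF (-1.24, SE 0.07), with its 8 probe sets above the dim range lower. PIK3R3 had 7.03 and 6.97 against 5.88 and 5.86 (1.13, SE 0.07), with all 5 higher. The Notch targets HES1 and HEY1 also differed in direction, HES1 falling by 1.07 (SE 0.08) and HEY1 rising by 1.21 (SE 0.06). SMAD6, an inhibitor of BMP signalling, had 6.18 and 5.99 against 4.44 and 4.53 (1.60, SE 0.09). IDH1, the cytosolic isocitrate dehydrogenase, had 7.63 and 7.54 against 6.24 and 6.18 (1.38, SE 0.06). The posterior homeobox genes HOXA13 and HOXB13 rose by 1.37 (SE 0.17) and 1.16 (SE 0.09). All the genes named here stayed called when any 1 array was left out.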
